A study of Mus musculus with 15 samples.

Results

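The genes described here encode Kv2 potassium channels and the subunits that modify them, in 9 genes taken by name from the count tables of all 15 libraries: the pore subunit Kcnb2 and the electrically silent subunits Kcng1, Kcng2, Kcng3, Kcng4, Kcns1, Kcns2, Kcns3 and Kcnv1. All 9 had a row in every table, against 55341 genes in the tables of the hormone-depleted mice and 48321 in those of the control and mutant mice. The libraries hold nuclear RNA of parvalbumin neurons, the fast-spiking inhibitory interneurons, whose fluorescent nuclei were sorted from the cortex of adult mice. All mice carried PvCre and the ROSA-tomato-lox reporter, so reporter and mutant allele were switched on in cells in which the parvalbumin gene drives Cre. Ctrl mice (n = 4) were untreated and Thra+/+. Mut mice (n = 4) were littermates of genotype ThraAMI/+, which express the dominant negative receptor TRalpha1L400R beside a wild-type allele of Thra, which encodes thyroid hormone receptor alpha. PTU mice (n = 3) were Thra+/+ and ate propylthiouracil, which blocks thyroid hormone synthesis, for 2 weeks. PTU_TH mice (n = 4) were Thra+/+, ate the same diet and were injected with thyroid hormone into the peritoneum 24 h before dissection.

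Kv2 channels carry a delayed rectifier potassium current that opens with depolarization and helps to repolarize neurons during repetitive firing. The silent subunits have the architecture of a voltage-gated potassium channel but form no working channel by themselves. They assemble with Kv2 pore subunits and shift the voltage dependence and kinetics of the joint channel, so their levels bear on the properties of the Kv2 current. Thyroid hormone acts through nuclear receptors that bind DNA at paired copies of the half-site AGGTCA. Parvalbumin neurons are known for high levels of Kcns3.

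Totals per library were 12957838 to 19141683 counts in PTU and PTU_TH and 22333742 to 32571175 in Ctrl and Mut. The defining transcripts of the sorted cells were present in each library, with Pvalb at 67.1 to 150 CPM (read counts put on the same library size) and Gad1, which makes the transmitter GABA, at 1033 to 1759 CPM, while Slc17a7 of excitatory neurons was at 17.2 to 52.9 CPM. Thra measured 62.5, 58.6, 49.6 and 64.0 CPM in Ctrl and 30.6, 28.5, 39.1 and 33.0 CPM in Mut, and was lower in Mut (log2 fold change −0.84, edgeR adjusted p = 0.0280). Hr, a direct target of the hormone receptors, measured 43.1 to 50.1 CPM in PTU_TH and 2.70 to 5.88 CPM in PTU. Summed over 4 Y-linked genes, 1 Ctrl, 3 Mut, 2 PTU and 2 PTU_TH libraries exceeded 50 CPM and are called Y-positive, and the others Y-negative. Genes of more than 100 kb held 24.9% to 28.4% of counts in the 4 Y-positive libraries of PTU and PTU_TH and 34.1% to 40.7% in the 3 Y-negative ones. In Ctrl and Mut these ranges were 27.4% to 36.7% and 31.6% to 39.7%. Replicates are numbered libraries, which n counts, and their titles do not say that each holds nuclei of 1 mouse. The p-values measure the spread between these libraries, and no pair within a group agreed to within counting noise.

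Among the 9 genes, levels differed widely and Kcns3 led in every library. Levels of different genes are compared here as RPKM, CPM per kb of annotated exon. In Ctrl, Kcns3 had 61.5 ± 3.49 RPKM (SD, n = 4) and Kcns1, another silent subunit of its subfamily, 22.97 ± 6.27. Kcng4 had 16.7 ± 3.28 RPKM, Kcng2 4.69 ± 0.55 and the pore subunit Kcnb2 4.15 ± 2.18. Kcng3 (1.27 ± 0.53), Kcnv1 (1.11 ± 0.36), Kcns2 (0.64 ± 0.12) and Kcng1 (0.25 ± 0.05) were low on the same RPKM scale. In this order, the library ranges of Kcns1 and Kcng4 overlapped, as did those of Kcng2 and Kcnb2, those of Kcng3 and Kcnv1, and those of Kcnv1 and Kcns2, while the other neighbours were apart. Kcng1 rested on 9 to 55 counts per library, whereas Kcns3 had 2230 to 6846. All 9 nevertheless passed the filter on low counts in each comparison. Of the 9, Kcng2 alone shares exonic sequence with an annotated gene (9.10% of its exonic bases, with D330025C20Rik), so its counts are less certain.

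The 3 genes with the highest level per length in Ctrl are shown with the 250 bases before their start, because they make up most of the silent subunit RNA and only Kcng4 among them was called different between groups. RefSeq's promoter table for GRCm38.p6 held entries for Kcng3, Kcng4, Kcns1 and Kcns3, which is 4 of the 9 genes. The windows lie on the minus strand at chr8:119635681-119635930 for Kcng4, chr2:164171114-164171363 for Kcns1 and chr12:11150843-11151092 for the first of 2 listed starts of Kcns3. In the GENCODE M21 annotation Kcns3 starts at 11151056 on this strand, so its window overlaps the annotated gene. Capitals mark CpG dinucleotides.
Kcng4 promoter: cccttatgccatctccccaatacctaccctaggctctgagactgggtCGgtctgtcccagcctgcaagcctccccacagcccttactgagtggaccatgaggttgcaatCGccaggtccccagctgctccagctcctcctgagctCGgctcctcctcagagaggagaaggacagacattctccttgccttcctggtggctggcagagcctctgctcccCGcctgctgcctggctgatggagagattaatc
Kcns1 promoter: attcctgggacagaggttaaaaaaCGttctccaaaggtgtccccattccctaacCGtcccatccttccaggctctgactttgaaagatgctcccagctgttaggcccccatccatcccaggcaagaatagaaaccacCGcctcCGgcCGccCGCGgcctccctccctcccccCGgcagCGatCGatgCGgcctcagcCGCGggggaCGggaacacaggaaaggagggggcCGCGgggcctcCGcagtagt
Kcns3 promoter: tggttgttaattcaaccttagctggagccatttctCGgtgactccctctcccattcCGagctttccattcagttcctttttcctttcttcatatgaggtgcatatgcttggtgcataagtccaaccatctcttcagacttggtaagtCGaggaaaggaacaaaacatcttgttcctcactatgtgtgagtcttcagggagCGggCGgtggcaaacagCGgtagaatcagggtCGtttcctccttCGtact
The Kcng4 window held 4 CpG dinucleotides at 60.4% GC, the Kcns1 window 17 at 63.2% and this Kcns3 window 8 at 47.2%. The window of the other listed Kcns3 start held 23 CpG dinucleotides at 72.8% GC. The median over 32851 promoters of the table was 6, and 44.4% held no more than Kcng4. The half-site AGGTCA, searched on both strands, was in none of the 5 windows of these genes and in 14.0% of all promoters of the same length. A direct repeat of that half-site with any 4 bases between the copies (both strands, each hit also a half-site) was in none of the 5 either, and in 0.0152% of all. The letters are absent from these windows only.

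Kcng4 was the 1 gene of the 9 whose level was called different in the mutant. Here the question was the effect of the dominant negative receptor on parvalbumin neurons. In Ctrl mice Kcng4 stood at 47.3, 77.7, 64.9 and 65.0 CPM, and in Mut mice at 16.5, 12.1, 27.9 and 18.2 CPM. Every Mut library lay below every Ctrl library. The mean fell from 63.7 ± 12.5 to 18.7 ± 6.66 CPM (SD, n = 4 each), a 3.40-fold difference. By edgeR's quasi-likelihood test the log2 fold change was −1.77 ± 0.24 (SE), with a 95% interval of −2.30 to −1.24 and an adjusted p of 0.0136. Of all genes tested, 0.348% were called in either direction and 0.224% as lower. At an unadjusted p under 0.05 there were 2 of the 9, Kcng4 and Kcns1, and 8.74% of all genes. Leaving out 1 library in turn kept the direction and left the edgeR call in 3 of 8 cases, with adjusted p up to 0.0703 (without Ctrl replicate 4) and also above the threshold without Ctrl replicate 2 (0.0515) or 3 (0.0672) and without Mut replicate 1 (0.0644) or 4 (0.0518). In bulk nuclei, fewer cells that express a gene and less RNA per cell cannot be told apart.

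**Figure D1:**
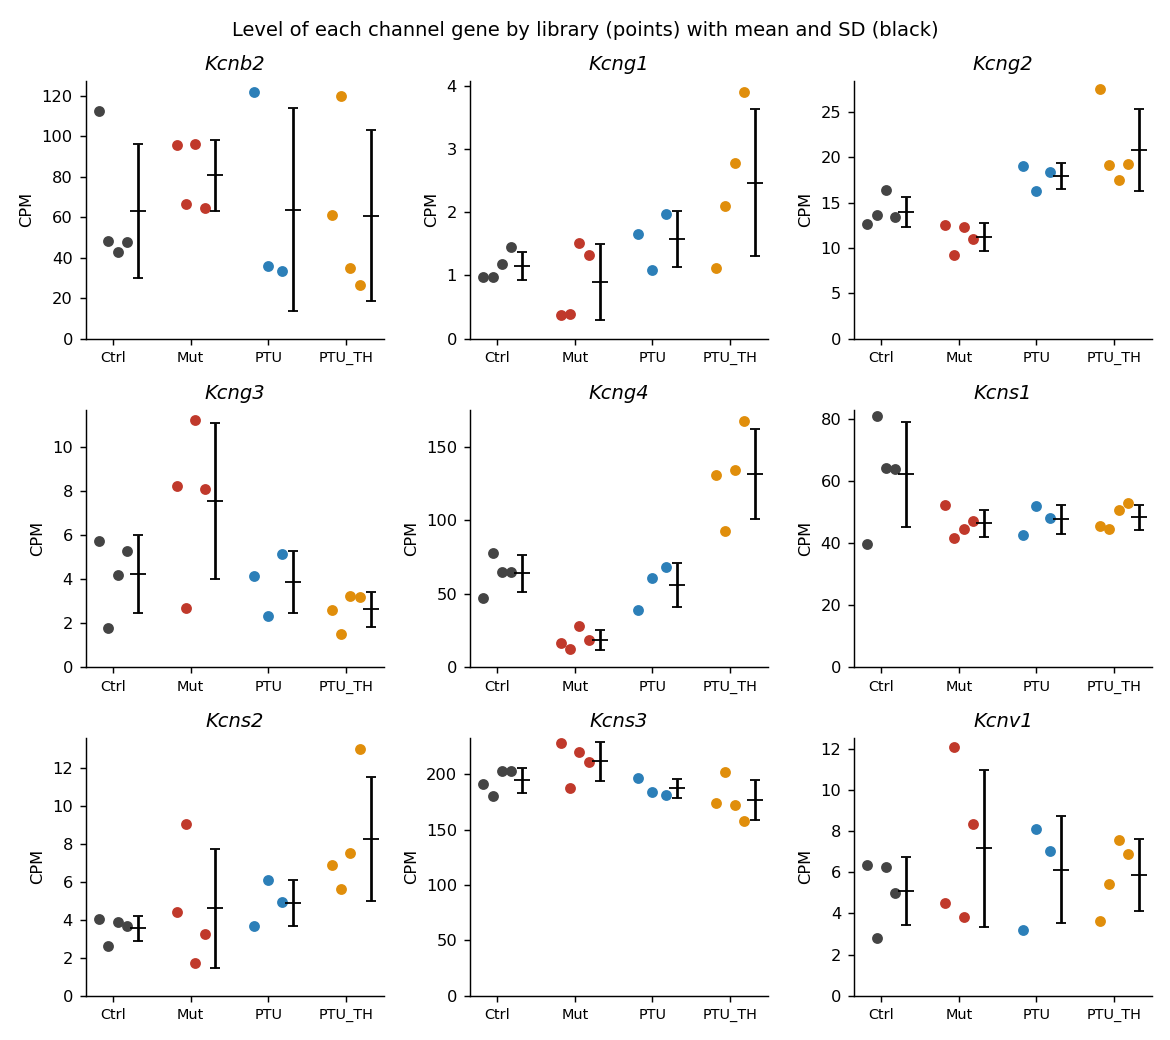
CPM of each of the 9 genes (y axis, from 0) in each library (points, in order of replicate number), by group (x axis), with the group mean and SD in black. Kcng4 sits at 12.1 to 27.9 CPM in Mut, 39.1 to 77.7 in Ctrl and PTU and 92.6 to 168 in PTU_TH, while Kcns3 keeps within 158 to 229 CPM throughout.

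Kcns3 and Kcns1, the more abundant silent subunits, were not called in Mut. Kcns3 measured 191, 180, 203 and 203 CPM in Ctrl and 229, 188, 220 and 211 in Mut. The groups overlapped, and the edgeR log2 fold change of 0.12 had a 95% interval of −0.11 to 0.36. Kcns1 measured 39.8, 81.1, 64.2 and 64.0 CPM in Ctrl and 52.3, 41.9, 44.5 and 47.1 in Mut. Its log2 fold change was −0.42 (95% interval −0.83 to −0.01), which did not pass over all genes (edgeR adjusted p = 0.553), and while the other 3 Ctrl libraries lay above every Mut library, Ctrl replicate 1 lay below all 4.

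The relatives of Kcng4 in the Kcng subfamily were not called in Mut either. Kcng2 measured 12.7, 13.6, 16.4 and 13.4 CPM in Ctrl and 12.5, 9.18, 12.3 and 11.03 in Mut. These ranges did not overlap, but the log2 fold change of −0.32 (95% interval −0.72 to 0.09) did not pass edgeR's test (adjusted p = 0.725). Kcng3 stood at 1.79 to 5.76 CPM in Ctrl and 2.68 to 11.2 in Mut, with a log2 fold change of 0.83 (95% interval −0.13 to 1.79). Kcng1 stood at 0.97 to 1.45 CPM in Ctrl and 0.38 to 1.51 in Mut. Of the 9 genes, 2 had group ranges without overlap (Kcng2 and Kcng4), where 6.17% of all genes tested with a symbol in both sets of tables did. The median log2 fold change was 0.12 over the 9 genes, 0.24 without Kcng4 and 0.01 over all genes tested.

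Kcnb2, which forms the pore with which the silent subunits assemble, measured 112, 48.5, 42.8 and 47.9 CPM in Ctrl and 95.5, 66.3, 96.3 and 64.6 in Mut. Its log2 fold change was 0.36 with a 95% interval of −0.27 to 0.99. The groups overlapped, with Ctrl replicate 1 the highest of the 8. Kcns2 (1.73 to 9.05 CPM in Mut, 2.60 to 4.03 in Ctrl) and Kcnv1 (3.82 to 12.1 CPM in Mut, 2.81 to 6.38 in Ctrl) had values in Mut that spread over those of Ctrl. Mut replicate 2 was the highest library for both.

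A call of Kcng4 and none of its relatives does not show that they differ, so the ratio of Kcng4 to each other gene was compared within libraries. In Mut against Ctrl, the log2 ratio was lower for all 8 genes, with mean differences from −1.404 for Kcns1 to −2.497 for Kcng3. Of the 8 ratios, 7 had no overlap between groups and an exact permutation p of 0.0286 (two-sided, n = 4 against 4), the smallest this design can give, and 0.0327 after adjustment over the 8 pairs. The ratio to Kcns2 was the exception, with a change of −1.94 and an exact p of 0.0571, since Mut replicate 3 overlapped the Ctrl libraries. The difference in the ratio was −2.24 to Kcnb2, the pore subunit, and −1.91 to Kcns3, the most abundant silent subunit. With a pseudocount of 0.1 or 1, or with CPM from plain library totals, 7 of the 8 ratios passed as well. In each comparison all 8 ratios share the same Kcng4 values, so their tests are not independent. Kcng4 itself had no overlap between Mut and Ctrl. The pseudocount of 0.5 weighs most on Kcng1, which was at 0.38 CPM in its lowest library.

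**Figure D2:**
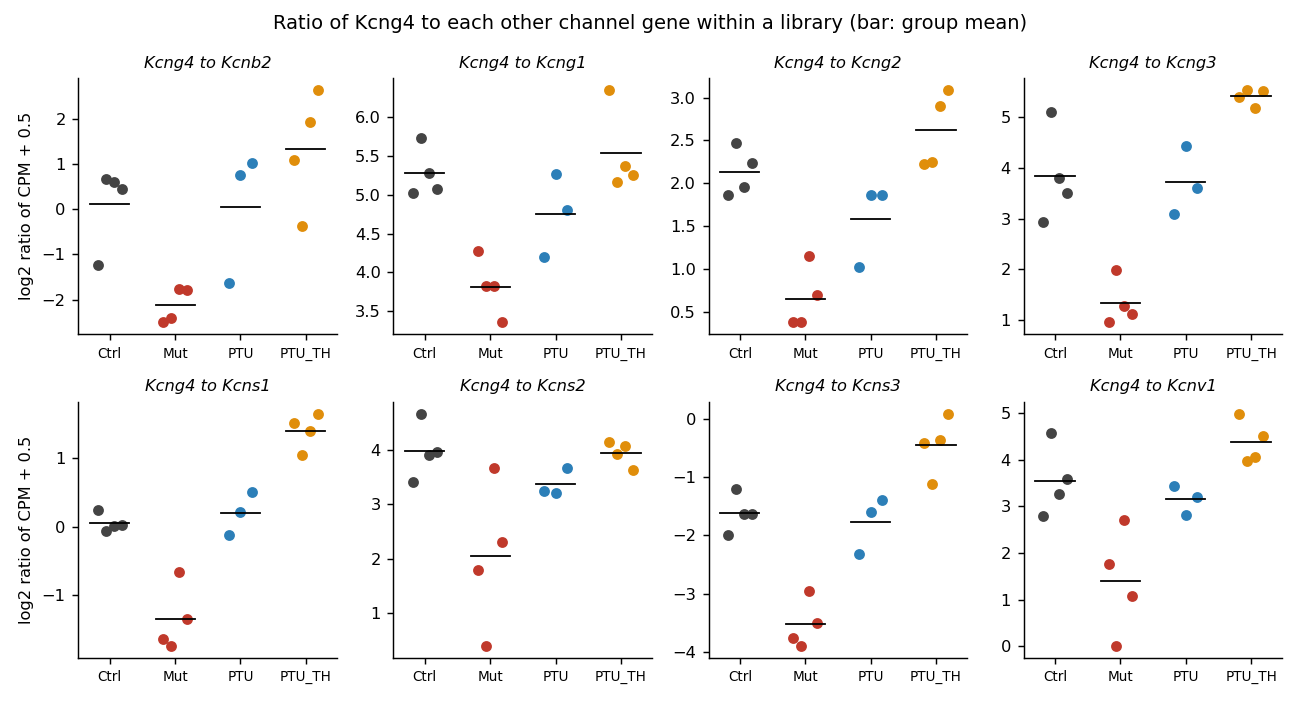
Log2 ratio of Kcng4 to each other gene, from CPM + 0.5, in each library (points) by group, with bars for the group means. Ratios in Mut lie below those in Ctrl without overlap in 7 of 8 panels, and those in PTU_TH lie above those in PTU without overlap in 5 of 8.

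Markers of other cells were summed in each library. The 11 markers of other interneurons summed to 140 to 165 CPM in Ctrl and 180 to 285 CPM in Mut, without overlap, led by Npy, with 0 members called. Of these 11, 5 were below 1 CPM on average in Ctrl and 5 in Mut. Excitatory markers summed to 213 to 256 CPM in Ctrl and 231 to 287 in Mut over 12 genes, of which edgeR called 1 higher and 0 lower in Mut. The 10 markers of parvalbumin neurons summed to 7714 to 10302 CPM in Ctrl and 8366 to 10516 in Mut, led by Erbb4, with 1 called higher and 0 lower. Pvalb, in contrast to that sum, was at 115 to 138 CPM in Ctrl and 67.1 to 92.6 in Mut (edgeR log2 fold change −0.63, adjusted p = 0.0780). The part of these in the result for Kcng4 was not tested. Among Y-positive libraries, Kcng4 was at 77.7 CPM in the 1 Ctrl library and 12.1 to 27.9 CPM in the 3 Mut libraries, and among Y-negative ones at 47.3 to 65.0 CPM in 3 Ctrl libraries and 18.2 CPM in the 1 Mut library.

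The hormone injection was the other comparison within 1 set of tables and asked which genes respond within 24 h. Kcng4 measured 39.1, 60.6 and 68.4 CPM in the 3 PTU libraries and 131, 92.6, 134 and 168 CPM in the 4 PTU_TH libraries. Every PTU_TH library lay above every PTU library, at means of 131 ± 30.7 (n = 4) and 56.0 ± 15.2 CPM (SD, n = 3). The edgeR log2 fold change was 1.24 ± 0.23 (SE; 95% interval 0.72 to 1.76), but the adjusted p of 0.0936 over all genes did not pass, so none of the 9 genes was called, against 0.281% of all genes tested (0.255% higher, 0.0262% lower). At an unadjusted p under 0.05 there were 2 of the 9, Kcng4 and Kcns2, and 7.37% of all genes. The call depended on the model. Kcng4 passed with DESeq2 (adjusted p = 9.40e-05), with limma-voom (0.00852) and in edgeR with Y class (0.000103) or the long-gene share (7.35e-09) as a covariate. In the 4 Y-positive libraries it measured 60.6 and 68.4 CPM in PTU against 134 and 168 in PTU_TH, and in the 3 Y-negative ones 39.1 in PTU against 131 and 92.6 in PTU_TH. Pvalb also had groups without overlap here, at 90.5 to 105 CPM in PTU and 119 to 150 in PTU_TH (edgeR log2 fold change 0.47, adjusted p = 0.277), while the 10 parvalbumin neuron markers summed to 6153 to 8380 and 6363 to 8497 CPM. Its part in the result for Kcng4 was not tested.

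Of the remaining 8 genes, Kcns2 had the log2 fold change closest to that of Kcng4 in this comparison. Kcns2 measured 3.66, 6.08 and 4.95 CPM in PTU and 6.91, 5.65, 7.55 and 13.0 CPM in PTU_TH. PTU replicate 6 lay above PTU_TH replicate 2, so the groups overlapped, and the log2 fold change of 0.77 (95% interval 0.06 to 1.48) did not pass edgeR's test (adjusted p = 0.619). It passed in edgeR with the long-gene share as a covariate (adjusted p = 0.0161). Without PTU_TH replicate 4 the log2 fold change of Kcns2 was 0.47. Kcns3 measured 197, 184 and 181 CPM in PTU and 174, 202, 173 and 158 in PTU_TH (log2 fold change −0.07, 95% interval −0.35 to 0.21). Kcns1 measured 42.7, 52.2 and 48.2 CPM in PTU and 45.6, 44.5, 50.6 and 53.1 in PTU_TH (log2 fold change 0.03, 95% interval −0.21 to 0.28). For both, the interval leaves out a rise of the size seen for Kcng4 (1.24). The intervals of Kcng1 (−0.34 to 1.65), Kcnb2 (−1.44 to 1.31) and Kcnv1 (−0.84 to 0.75) were wide. Those of Kcng2 (−0.19 to 0.65) and Kcng3 (−1.38 to 0.26) included 0 as well. A rise of 1.24 was also left out by the intervals of Kcng2, Kcng3 and Kcnv1, but not by those of Kcng1, Kcnb2 and Kcns2. Kcng2 measured 19.0, 16.3 and 18.4 CPM in PTU and 27.5, 19.1, 17.5 and 19.3 in PTU_TH, with PTU_TH replicate 1 above the rest. Kcng3 stood at 2.32 to 5.14 CPM in PTU and 1.51 to 3.24 in PTU_TH, and Kcng1 at 1.09 to 1.97 and 1.11 to 3.90. The groups overlapped for all 3. Over the 9 genes the median log2 fold change was 0.03, against −0.01 without Kcng4 and −0.00 over all genes tested, and 1 of 9, Kcng4, had no overlap between groups, where 8.47% of genes with a symbol in both sets did.

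The ratio of Kcng4 to each other gene was higher in PTU_TH than in PTU on average for all 8 genes, by 0.57 (Kcns2) to 1.69 (Kcng3) on the log2 scale. For Kcng2, Kcng3, Kcns1, Kcns3 and Kcnv1 the ratios did not overlap between groups. With 3 against 4 libraries the exact permutation test cannot go below a two-sided p of 0.0571, which these 5 reached (0.0914 adjusted over the 8 pairs), so none could pass. The ratios to Kcnb2 (exact p = 0.286), Kcng1 (exact p = 0.171) and Kcns2 (exact p = 0.114) overlapped.

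**Figure D3:**
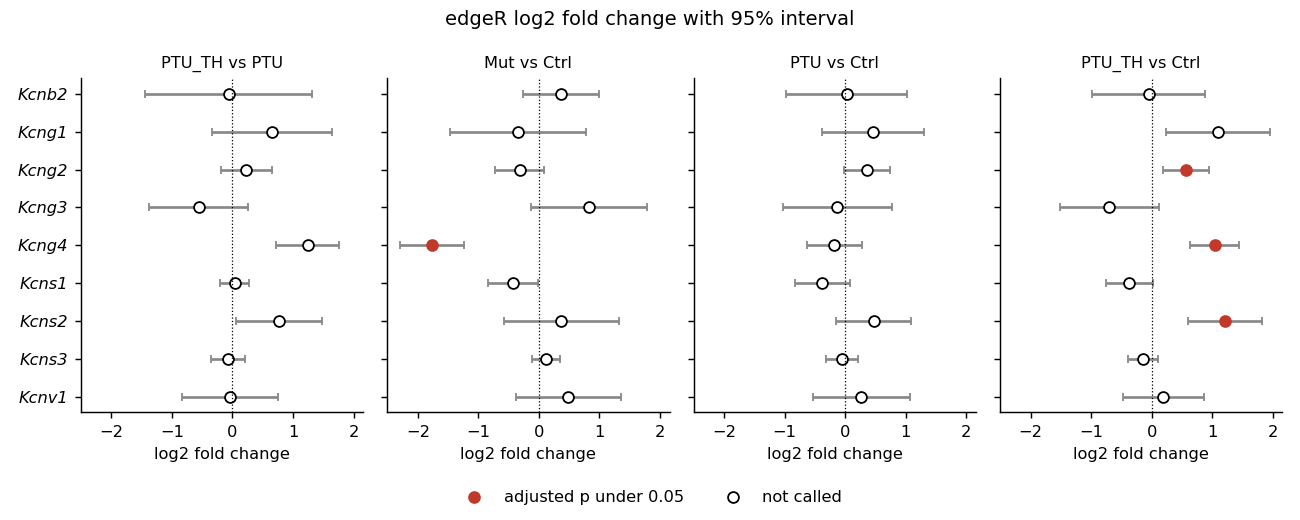
Log2 fold change (x axis) of each gene in the 4 comparisons by edgeR, with 95% intervals and filled red points for adjusted p under 0.05. Kcng4 is the 1 called gene in Mut against Ctrl, none is called in PTU_TH against PTU or PTU against Ctrl, and Kcng2, Kcng4 and Kcns2 are called in PTU_TH against Ctrl.

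Comparisons with untreated mice place PTU and PTU_TH beside Ctrl, but these libraries were counted over different gene lists and differ in depth, so the set of tables and the treatment cannot be told apart. In PTU against Ctrl, 17.0% of all genes were called (4.38% higher, 12.6% lower), and none of the 9 was. By edgeR 0 of the 9 had an unadjusted p under 0.05, where 28.8% of all genes did. DESeq2 called 0 of the 9 and 3305 of all 16496 genes tested. The groups of all 9 overlapped, whereas 27.5% of all genes had groups without overlap. Kcng4 overlapped between these groups and had a log2 fold change of −0.18 (95% interval −0.64 to 0.28, edgeR adjusted p = 0.619). With the long-gene share as a covariate it was −0.37 and passed (edgeR adjusted p = 0.0221), and without PTU replicate 5, the lowest of the PTU libraries, it was 0.014. In PTU_TH against Ctrl, 3 of the 9 were called, all higher in PTU_TH, against 17.8% of all genes (4.72% higher, 13.1% lower). At an unadjusted p under 0.05 there were 4 of the 9 and 30.0% of all genes, and the ranges of 3 did not overlap, as for 23.2%. Kcng4 was higher by 1.04 ± 0.18 (SE; edgeR adjusted p = 0.00125) and Kcns2 by 1.21 ± 0.28 (edgeR adjusted p = 0.00869). Kcng2 was higher by 0.57 ± 0.18 (edgeR adjusted p = 0.0422), a call lost without PTU_TH replicate 1 (0.147) or without Ctrl replicate 1 (0.103), 2 (0.0827) or 4 (0.101). Kcng1, at 0.97 to 1.45 CPM in Ctrl and 1.11 to 3.90 in PTU_TH, had a log2 fold change of 1.10 (95% interval 0.24 to 1.95) that did not pass edgeR's test (adjusted p = 0.0758). It passed with DESeq2 (adjusted p = 0.0384) and in edgeR without PTU_TH replicate 1 (0.0239). The log2 ratio of Kcng4 to Kcng3 (1.57), to Kcns1 (1.35) and to Kcns3 (1.17) was higher in PTU_TH than in Ctrl without overlap, each with an exact permutation p of 0.0286, the smallest possible, and 0.0762 after adjustment over the 8 pairs. The other 5 overlapped, with the smallest difference for Kcns2 (−0.04, exact p = 0.943), and none of the 8 passed after adjustment. These comparisons share the Ctrl libraries with each other and with the mutant comparison, and their treated libraries with the injection comparison.

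Placed in order, mean Kcng4 was highest in PTU_TH (131 CPM), followed by Ctrl (63.7), PTU (56.0) and Mut (18.7). Only the neighbours Ctrl and PTU overlapped in this order. The order spans both sets of tables, so its steps between the sets cannot be told apart from treatment. As a share of the summed RPKM of the 9 genes, Kcng4 was 27.9% (range 19.9% to 34.6%) in PTU_TH, 14.7% (12.1% to 17.5%) in Ctrl, 14.0% (9.73% to 17.0%) in PTU and 4.72% (3.51% to 6.76%) in Mut. Kcns3 held 45.4% in PTU_TH and 65.1% in Mut, against 54.4% in Ctrl and 56.2% in PTU. By RPKM, Kcng4 came next after Kcns3 in PTU_TH, without overlap with Kcns1 below it. In Ctrl and PTU it came after Kcns1 with overlap, and in Mut it overlapped with Kcnb2 and Kcng2.

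**Figure D4:**
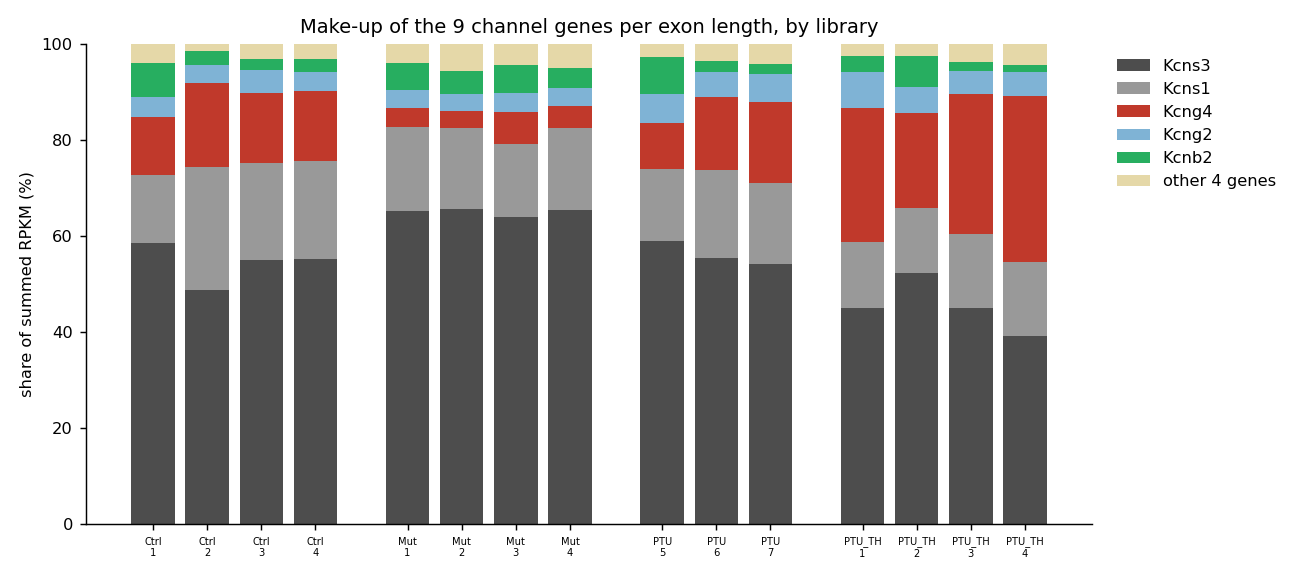
Share of the summed RPKM of the 9 genes (y axis, %) held by each of the 5 most abundant genes and by the other 4 together, 1 bar per library. The red segment, Kcng4, covers 3.51% to 6.76% in Mut and 19.9% to 34.6% in PTU_TH. Ctrl and Mut come from a different set of tables than PTU and PTU_TH.

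Kcnb2 varied more within groups than between them. Kcnb2, whose gene spans 436497 bases on chromosome 1 (15287254 to 15723750), measured 122, 61.2 and 120 CPM in PTU replicate 5 and PTU_TH replicates 1 and 2, the 3 Y-negative libraries of their set, with the larger share of long genes. It measured 26.6 to 35.7 CPM in the 4 other PTU and PTU_TH libraries. Within the Ctrl group it was highest in replicate 1 (112 CPM), the library with the largest long-gene share of the Ctrl and Mut set (39.7%). In the same 2 classes of PTU and PTU_TH libraries, Kcns1 was at 42.7 to 45.6 and 48.2 to 53.1 CPM. Kcnv1 was at 3.18 to 5.42 and 6.87 to 8.13 CPM. How many of all genes separate these classes was not counted, so these ranges show nothing particular to the channel genes. Kcng4 overlapped between the classes (39.1 to 131 and 60.6 to 168 CPM). The part of the long-gene share and of sex in these levels was not tested.

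**Figure D5:**
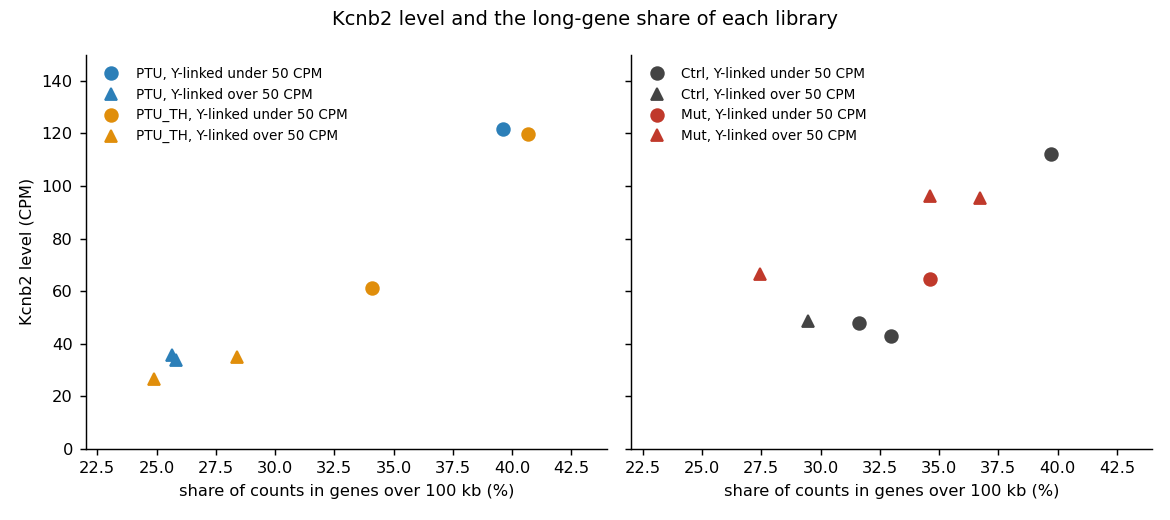
Kcnb2 level in CPM against the share of counts in genes over 100 kb (%), left for PTU and PTU_TH and right for Ctrl and Mut, with triangles for Y-positive and circles for Y-negative libraries. On the left, the 4 libraries at 24.9% to 28.4% lie at 26.6 to 35.7 CPM and the 3 at 34.1% to 40.7% at 61.2 to 122 CPM.

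Genes next to Kcng4 were examined by position alone. Kcng4 lies on chromosome 8 at 119623854 to 119635680 in GRCm38, and 15 annotated genes lie within 200 kb. In Mut against Ctrl, 7 of these were tested and 0 called by edgeR, where 0.348% of all genes were, so a count of 0 says little about the neighbours. By edgeR, Dnaaf1 alone had an unadjusted p under 0.05 (8.74% of all genes). Log2 fold changes ran from −1.17 for Dnaaf1, at under 1 CPM, to 0.10 for Taf1c, whose annotated span overlaps that of Dnaaf1. They were negative for 6 of the 7 and positive for 1, with a median of −0.16 against 0.01 over all genes tested. In PTU_TH against PTU, 6 were tested and 0 called, also 0 at an unadjusted p under 0.05 by edgeR (0.281% and 7.37% of all genes), from −0.37 for Necab2 to 0.18 for Taf1c. The nearest tested neighbour, Taf1c, a factor of ribosomal RNA gene transcription, was at 20.6 ± 3.97 CPM in Ctrl and 22.1 ± 4.95 in Mut (SD, n = 4 each). Against Ctrl, 1 of 7 was called in each of the other comparisons, where 17.0% and 17.8% of all genes were, Necab2 in PTU (1.35, edgeR adjusted p = 0.00586) and Taf1c in PTU_TH (0.66, edgeR adjusted p = 0.0117).

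Values of related genes came from 2 lists, of Kv2 partners and of other potassium channel pore genes. The 15 listed genes whose products bind, anchor or modify Kv2 channels include Vapa and Vapb, the endoplasmic reticulum proteins that tether Kv2 clusters. In Mut against Ctrl, 0 of 14 tested were called by edgeR and 3 had an unadjusted p under 0.05, against 0.348% and 8.74% of all genes, with a median log2 fold change of 0.01 and 0.01 over all genes. DESeq2 called 1. The smallest p belonged to Stx1a, the syntaxin that binds Kv2 (0.72, edgeR adjusted p = 0.142), and Cacna1d, an L-type calcium channel (−0.50, adjusted p = 0.407). In PTU_TH against PTU, 0 of 14 were called, and 0 at an unadjusted p under 0.05 by edgeR (0.281% and 7.37% of all genes), with Stx1a (−0.31) and Ryr2, a calcium release channel (0.51), having the smallest p (edgeR adjusted p = 0.860 for both). Other voltage-gated potassium channel pore genes had 1 called of 25 tested in Mut against Ctrl, in the lower direction, and 9 at an unadjusted p under 0.05, against 0.348% and 8.74% of all genes, with a median log2 fold change of −0.10. In PTU_TH against PTU 0 of 23 were called and 6 had an unadjusted p under 0.05 by edgeR, against 0.281% and 7.37% of all genes, with a median of 0.13 against −0.00 for all genes. DESeq2 called 2 of them, and edgeR 3 with Y class and 9 with the long-gene share as a covariate. Of all 15288 genes tested, these alternatives called 246, 335 and 1011 in that order. Kcnc1, which encodes a Kv3 channel, was among the genes of the list with the smallest p (0.48, edgeR adjusted p = 0.440). Against Ctrl, 17.0% and 17.8% of all genes were called. In PTU, 3 of 25 of these pore genes were called, among them Kcnd3 (0.71) and Kcnh4 (1.95), both higher. Kcnh4 was low, at 1.00 ± 0.77 CPM in Ctrl and 3.86 ± 2.17 in PTU (SD), and its groups overlapped. In PTU_TH 3 of the pore genes were called, among them Kcnh2 (0.46), higher, and Kcnh8 (−2.20), lower and near 1 CPM. Of the 14 Kv2 partners, Stx1a (0.80) and Cdk5 (0.45), a kinase, were higher and Ppp3cb (−0.56), a calcineurin subunit, lower in PTU, and Ppp3cb (−0.61) was lower in PTU_TH.

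Kcng4 was the member whose pattern over the libraries was sought among all genes. After centring on the mean of each set of tables, log2 CPM of 9789 genes with at least 5 CPM was correlated with that of Kcng4 over the 15 libraries, which share their group differences, so the coefficient only ranks genes. Among the 5 most alike were Letm1, a mitochondrial inner membrane protein (r = 0.97), Sphk1, a sphingosine kinase (0.97), Ncs1, a neuronal calcium sensor (0.96), and Hrh3, a histamine receptor (0.96). The log2 fold changes of these 4 were smaller than those of Kcng4 in both comparisons, from 0.35 (Ncs1) to 0.67 (Sphk1) in PTU_TH against PTU and from −0.38 (Ncs1) to −0.92 (Sphk1) in Mut against Ctrl. By edgeR none of these 4 was called in either comparison, with adjusted p from 0.0584 to 0.341 in Mut against Ctrl and from 0.116 to 0.451 in PTU_TH against PTU. Among the other channel genes that met the minimum level, Kcng2 ranked 537 (r = 0.63), Kcns1 551 (0.62), Kcnv1 7934 (−0.29), Kcnb2 8871 (−0.44) and Kcns3 9232 (−0.53).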

How the data were processed

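Nuclear RNA of sorted nuclei was amplified with a SMART-Seq v4 kit, made into Nextera XT libraries and read as 75-base single ends, per the labels' protocols. The authors deposited raw counts per gene, 1 table per library. Bowtie2 2.5.3, HTSeq and mm10 (GRCm38) are named in the submitters' processing notes. For the annotation release, the counting mode and strand, nothing is given in the sources used here. Files of PTU and PTU_TH hold 55341 genes, those of Ctrl and Mut hold 48321, and 46380 symbols are in both. Every column belonged to a library of the series.

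Counts of the libraries compared were fitted by edgeR 4.0.16 (R 4.3.3) after TMM scaling and filterByExpr (minimum count 10), with robust quasi-likelihood tests and Benjamini-Hochberg adjustment over all genes tested, and genes were called at an adjusted p under 0.05. SE is the log2 fold change divided by the root of the F statistic. Comparisons with PTU or PTU_TH against Ctrl used shared symbols only. CPM printed are TMM-scaled over the shared symbols of all 15 libraries, and RPKM divide them by the union of exons in GENCODE M21 for GRCm38, which may not be the authors' annotation. Ratios to Kcng4 used log2(CPM + 0.5) and a two-sided exact permutation test over libraries. The fits were tested on simulated data. Reads carry no molecular identifiers, so counts are not independent molecules.

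Alternatives were DESeq2 1.42.0, limma 3.58.1 (voom with quality weights), RLE and upper quartile scaling, no filter or 1 CPM, 1 fit to all groups, Y-linked counts (over 50 CPM in 4 genes) or the long-gene share as a covariate, a block for the replicate number and the omission of single libraries in turn. Named besides the members are called genes of 2 lists (or the 2 with the smallest p), genes within 200 kb of Kcng4 and the 5 most like it; not all genes that meet this rule are reported here. The members, lists and alternatives were chosen with earlier results of these data known.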

Additional observations from a re-analysis of the deposited data

Results flagged for a closer look

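In Ctrl, Kcnb2 replicate 1 stood far from the others, at 112 CPM against 48.5 CPM in the nearest library. It was the 1 such value in 27 groups of 4 libraries examined over the 9 genes, and chance alone puts about 1 in 20 groups past this limit. Replicate 1 also had the largest share of counts in genes over 100 kb of its set (39.7%), and the part of that share in the value was not tested.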

How the results depend on the processing

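Kcng4 kept its direction in Mut against Ctrl (log2 fold change −1.87 to −1.76 in 10 alternatives, all passing; −2.03 to −1.61 without 1 library, 3 of 8 passing), in PTU_TH against PTU (1.13 to 1.34 in 9 alternatives, 4 passing; 1.05 to 1.41 without 1 library, 0 of 7 passing) and in PTU_TH against Ctrl (0.93 to 1.04, 10 of 10 passing; 0.90 to 1.16 without 1 library, 8 of 8 passing). In PTU_TH against PTU, Kcng4 passed with DESeq2 (1.25), voom (1.13), Y class (1.34) and the long-gene share (1.33), which called 1, 1, 1 and 2 of the 9 genes, and 43, 246, 171, 335 and 1011 of all genes were called in edgeR and these alternatives. In PTU against Ctrl, the long-gene share gave 2 called genes of the 9, Kcng4 (−0.37) and Kcns1, against 0. With that covariate 4008 of all genes were called, against 2804 without it. Kcng4 ranged there from −0.35 to 0.014 without 1 library. Without 1 library, the number of the 9 called ranged from 0 to 1 in Mut against Ctrl, with 11 to 103 of all genes. It had the same range in PTU against Ctrl, with 2061 to 4283 of all genes. The ratio of Kcng4 differed for 0 of 8 genes without any 1 library in Mut against Ctrl, since 3 against 4 libraries cannot reach the threshold. The number of all genes called in Mut against Ctrl, 59, was 31 with Y class and 358 with DESeq2.

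Signs of genes that were not called turned in 31 of 612 alternative values of the 36 gene results, and the cause was not tested. In PTU_TH against PTU, these were Kcnb2 (voom 0.35) and Kcns1 (voom −0.019), and Kcnv1 (Y class 0.14, long-gene share 0.11). Without 1 library, Kcnb2 ranged from −0.66 to 0.85, Kcns1 from −0.022 to 0.090 and Kcnv1 from −0.34 to 0.20. In Mut against Ctrl, Kcns2 was −0.11 with voom and ranged from −0.19 to 0.65 without 1 library. In PTU against Ctrl, Kcnb2 was −0.0031 with upper quartile scaling and −0.40 with voom, Kcng3 0.33 with Y class and 0.035 with the long-gene share, and Kcns3 0.0059 with Y class. Without 1 library, Kcnb2 ranged from −0.87 to 0.48 and Kcng3 from −0.40 to 0.13. In PTU_TH against Ctrl, Kcnb2 was 0.035 with Y class, and without 1 library Kcnb2 ranged from −0.62 to 0.39 and Kcnv1 from −0.0074 to 0.37.

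Same-numbered Mut and Ctrl libraries deviated together with r of 0.29, 0.39, −0.09 and 0.19, and PTU_TH and Ctrl libraries with 0.27, −0.45, −0.12 and 0.18, so the numbers were not read as pairs. With a replicate block, Kcng4 was −1.80 in Mut against Ctrl and 1.03 in PTU_TH against Ctrl, and passed in both, while Kcng2 (0.55) lost its call in PTU_TH against Ctrl (edgeR adjusted p = 0.0919). No paired analysis was possible for PTU because its numbers, 5 to 7, occur in no other group. Depth limits Kcng1 most, at 9 to 55 counts per library.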
